A study of Mus musculus with 4 samples.

Results

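The transcripts described here are those of 8 SR proteins (*Srsf1*, *Srsf2*, *Srsf3*, *Srsf4*, *Srsf5*, *Srsf6*, *Srsf7* and *Srsf11*) and of the 2 SR-like Tra2 proteins (*Tra2a* and *Tra2b*) in the mouse cortex at E14.5. They were taken by name, with earlier results of these data known, and make up 10 of the 23038 genes and 60 of the 38240 alternative splicing events that were quantified. mRNA-SEQ was performed on polyA-selected RNA from 2 control and 2 *Qk* cKO cortices, labelled replicate 1 and replicate 2 in each group. Control embryos carried *Qk* fl/fl, and the labels call them wild type. *Qk* cKO embryos carried the same floxed alleles together with a Nestin-Cre transgene. Cre is driven by the Nestin promoter, so the deletion concerns neural progenitors and the cells that derive from them, while cells of other origin in the tissue, such as blood cells and microglia, are not targeted. Both genotypes came from littermates, and the sources do not say which samples share a litter.

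SR proteins bind short sequences in exons through RNA recognition motifs and recruit the splicing machinery through a domain rich in arginine and serine, which SRPK and CLK kinases phosphorylate. Tra2a and Tra2b are paralogous SR-like proteins that bind GAA-rich exonic enhancers. Transcripts of this family are known for poison exons, highly conserved exons that bring a premature stop codon into the reading frame, so that the mRNA is degraded by nonsense-mediated decay (NMD). Several family members promote the inclusion of their own poison exon and in this way limit their own level. *Qk* encodes the Qki RNA binding proteins, whose nuclear isoform acts in pre-mRNA splicing.

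The poison exons of 5 genes are shown from their first base to the first stop codon in the frame of the preceding coding exon, to make visible how each one ends the reading frame. The sequences were read 5′ to 3′ from transcripts of GENCODE release M21 (GRCm38, the same build as mm10), and capitals mark the stop codon. The region is chr6:49252965-49253108 on the minus strand for *Tra2a*, chr16:22259181-22259261 on the minus strand for *Tra2b*, chr17:29039454-29039487 on the plus strand for *Srsf3*, chr17:80205054-80205081 on the minus strand for *Srsf7* and chr3:158024209-158024231 on the minus strand for *Srsf11*.
Tra2a: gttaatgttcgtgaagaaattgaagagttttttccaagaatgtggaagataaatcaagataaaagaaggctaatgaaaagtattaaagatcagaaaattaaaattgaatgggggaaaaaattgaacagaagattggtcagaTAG
Tra2b: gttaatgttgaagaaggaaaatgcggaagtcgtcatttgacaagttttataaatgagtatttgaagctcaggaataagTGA
Srsf3: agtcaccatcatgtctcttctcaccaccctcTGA
Srsf7: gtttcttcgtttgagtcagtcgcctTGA
Srsf11: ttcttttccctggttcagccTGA
The poison exons of the paralogs *Tra2a* and *Tra2b* start with the same 9 bases.

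The stop codon began at base 142 of the 306 nt exon of *Tra2a* and at base 79 of the 276 nt exon of *Tra2b*. In *Srsf3* it began at base 32 of 456, in *Srsf7* at base 26 of 460 and in *Srsf11* at base 21 of the first of 2 adjacent exons of 109 and 117 nt. *Srsf6* has a poison exon of 268 nt with the stop codon at base 150, and *Srsf4* has 3 tandem poison exons of which the first holds the stop codon at base 113. The exons of *Tra2a*, *Tra2b* and *Srsf3* have lengths that are a multiple of 3, so that by length alone they would keep the reading frame. The hexamer GAAGAA, the core of the Tra2 enhancer, occurred in the poison exons of 3 of these 7 genes on the transcribed strand, 4 times in *Tra2a* and 4 times in *Tra2b* with overlapping matches counted, and 1 time in *Srsf7*. It was found in 24.6% of 13612 internal exons of coding transcripts of 226 to 589 nt. Its reverse complement TTCTTC occurred in 3 of the 7 and in 11.8% of the internal exons. Neither ACTAAC nor ACTAAT, forms of the Qki recognition sequence, nor their reverse complements GTTAGT and ATTAGT were found in any of the 7. Only exon sequences were searched, and the introns around these exons were not. The study maps its Qki5 site of *Nin* to the intron downstream of the regulated exon. On the transcribed strand these 2 forms were found in 1.86% and 2.18% of the internal exons, and on the opposite strand in 1.22% and 1.56%.

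A second set of sequences shows alternative splice sites in coding exons of the family. In 4 genes an exon can start at either of 2 acceptors 3 nt apart. Capitals mark the 3 bases that are kept with the first (proximal) acceptor and skipped with the second (distal) acceptor. The 30 bases shown lie at chr6:49244906-49244935 on the minus strand for *Tra2a*, chr16:22247234-22247263 on the minus strand for *Tra2b*, chr12:80949717-80949746 on the plus strand for *Srsf5* and chr3:158012174-158012203 on the minus strand for *Srsf11*.
Tra2a: AAGaaggtcgccctctccttactacagtcg
Tra2b: AAGacggtcaccttctccttactacagtcg
Srsf5: CAGgtcaagaagcaggtcacgatctcggac
Srsf11: CAGgtgactcgggattatgatgaagaggag
All 4 triplets end in AG, the dinucleotide that precedes an acceptor. The exons of *Tra2a* and *Tra2b* are identical at 27 of the 30 bases. Only in *Srsf5* are both acceptors annotated, and in the other 3 genes the proximal acceptor is the annotated site. In *Srsf7* an exon can end at any of 3 donors, all used by coding transcripts, and capitals mark the 33 bases between the first and the third donor at chr17:80204110-80204175 on the minus strand.
Srsf7: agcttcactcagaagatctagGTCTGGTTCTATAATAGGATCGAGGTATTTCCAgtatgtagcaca
The bases that follow each of the 3 donors are GT.

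The deposited numbers of tags, the unit that Quantas counts, summed to 37942046 to 42994832 per sample. As a check of the genotypes, tags on the junction of *Qk* exons 2 and 3 were set against those on the junction of exons 3 and 4. The ratio was 1.11 and 1.29 in the control samples and 0.0702 and 0.0819 in the *Qk* cKO samples (log2 odds ratio -3.97, Fisher's exact test on summed tags, p = 4.8e-251). The junction of exons 2 and 3 held 635 and 565 tags in control and 63 and 68 in *Qk* cKO. That of exons 3 and 4 held 574 and 439 in control and 898 and 830 in *Qk* cKO. The whole *Qk* transcript was higher in *Qk* cKO, with a log2 fold change of 0.65 (FDR = 2.5e-05, edgeR quasi-likelihood test). Markers of cortical cells were present in all 4 samples, and no marker tested was at 0 in all of them. The summed level of 8 radial glia markers was 1512 to 1633 RPKM (reads scaled to exon length and library size) in control and 1267 to 1329 in *Qk* cKO, and 2 of the 8, *Fabp7* and *Slc1a3*, passed the edgeR test described for the levels as lower. *Fabp7* made up most of the sum, 989 and 901 RPKM in control and 703 and 667 in *Qk* cKO. *Pax6*, *Hes1* and *Nes* had log2 fold changes of 0.08, 0.08 and 0.04, and the rest of the 8 lay below 0. Summed levels were 1221 to 1262 and 1168 to 1216 for 8 cortical neuron markers, 91.2 to 95.6 and 88.8 to 89.7 for 4 intermediate progenitor markers, and 152 to 160 and 160 to 163 for 7 interneuron and subpallium markers, in control and *Qk* cKO respectively, and none of these passed. *Tubb3* made up most of the neuron sum, 765 and 833 RPKM in control and 779 and 676 in *Qk* cKO. The median log2 fold change of the 8 neuron markers was 0.06. Markers of hypothalamus and diencephalon had a low summed level that was 2.44 to 7.13 RPKM in control and 0.675 to 0.851 in *Qk* cKO, and 5 of these 6 passed as lower. All 6, and *Fabp7*, are also in the study's own list of changed transcripts from these samples, so their results are not independent evidence. That list prints them, and *Qk*, with log2 fold changes of the opposite sign to those found here. No marker of erythroid cells (221 to 253 and 241 to 341 RPKM, 5 genes of which 4 were tested), microglia (16.5 to 17.5 and 16.0 to 17.1, 4 genes), endothelium (44.4 to 46.9 and 42.9 to 50.1, 4 genes) or meninges (66.6 to 71.3 and 60.8 to 90.1, 4 genes) passed. Fewer cells of a type and less RNA per cell cannot be told apart in these bulk samples, and the part of these differences in the results that follow was not tested.

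The first comparison asked whether loss of *Qk* affects the steady-state levels of the SR and Tra2 transcripts. None of the 10 passed the test, and all 10 were strongly expressed in both genotypes. Averaged over the 4 samples, their levels ran from 42.98 RPKM for *Srsf4* to 181 RPKM for *Srsf5*, a range of 4.20-fold, and each ranked among the 1741 highest of the 18834 transcripts tested. Together the 10 transcripts took 0.242% to 0.263% of all tags of a sample. From high to low the order was *Srsf5*, *Srsf7*, *Tra2a*, *Srsf3*, *Tra2b*, *Srsf2*, *Srsf6*, *Srsf1*, *Srsf11* and *Srsf4*. Of the 9 pairs of neighbours in this order, 4 overlapped between samples and cannot be ranked (*Srsf7* with *Tra2a*, *Tra2a* with *Srsf3*, *Srsf2* with *Srsf6*, *Srsf1* with *Srsf11*).

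**Figure D1:**
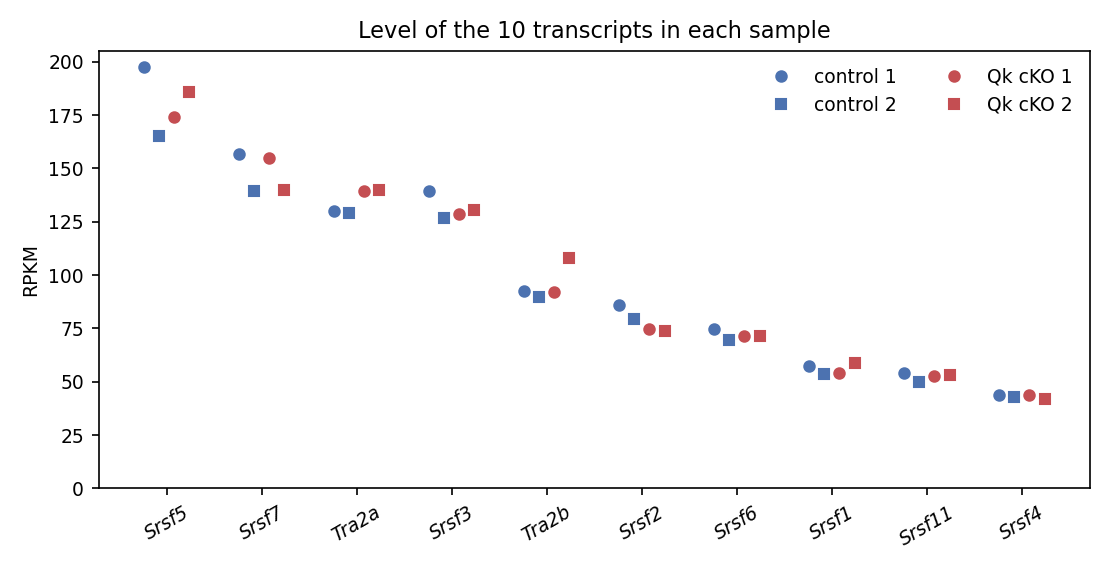
Level of each of the 10 transcripts (RPKM, linear axis from 0), ordered by the mean over the samples, with 1 point for each of the 2 control (blue) and 2 *Qk* cKO (red) samples. The red points lie above both blue points for *Tra2a*, below both for *Srsf2*, and among or around them for the other 8 genes.

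The 3 transcripts with the largest differences were those of *Tra2b*, *Srsf2* and *Tra2a*. *Tra2b*, which activates exons with GAA-rich enhancers, had 92.3 and 89.9 RPKM in the control samples and 92.1 and 108 RPKM in the *Qk* cKO samples. The higher mean of the *Qk* cKO group came from replicate 2, while replicate 1 lay between the control values. The log2 fold change was 0.15 ± 0.06 (SE, n = 2 per group; FDR = 0.500, edgeR quasi-likelihood test). Without *Qk* cKO replicate 2 it was 0.04.

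*Tra2a* had 130 and 129 RPKM in the control samples and 140 in each of the *Qk* cKO samples. Here the groups did not overlap, and the difference was small, with a log2 fold change of 0.12 ± 0.06 (SE, n = 2 per group; FDR = 0.558, edgeR quasi-likelihood test). *Srsf2*, a classical SR protein that binds exonic enhancers, had 86.0 and 79.4 RPKM in control and 74.6 and 73.6 in *Qk* cKO. Both *Qk* cKO values lay below both control values, with a log2 fold change of -0.15 ± 0.06 (SE, n = 2 per group; FDR = 0.400, edgeR quasi-likelihood test). Groups that did not overlap were seen in 2 of the 10 genes, against 36.9% of all transcripts tested.

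The other 7 transcripts had log2 fold changes between -0.02 for *Srsf3* and 0.04 for *Srsf11*. *Srsf3*, the smallest classical member, had 139 and 127 RPKM in control and 129 and 130 in *Qk* cKO. *Srsf5* had 197 and 165 RPKM in control and 174 and 186 in *Qk* cKO, so its 2 control samples differed more from each other than the group means did (181 ± 22.8 and 180.0 ± 8.15, SD, n = 2 each). *Srsf7* had 157 and 139 RPKM in control and 155 and 140 in *Qk* cKO. *Srsf6* had 74.9 and 69.5 against 71.3 and 71.2, and *Srsf1*, the prototype of the family, had 57.6 and 53.8 against 54.0 and 58.7. *Srsf11* had 53.9 and 50.0025 against 52.4 and 53.4, and *Srsf4* had 43.8 and 42.8 against 43.6 and 41.7. In these 7 genes the RPKM values of control and *Qk* cKO overlapped.

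**Figure D2:**
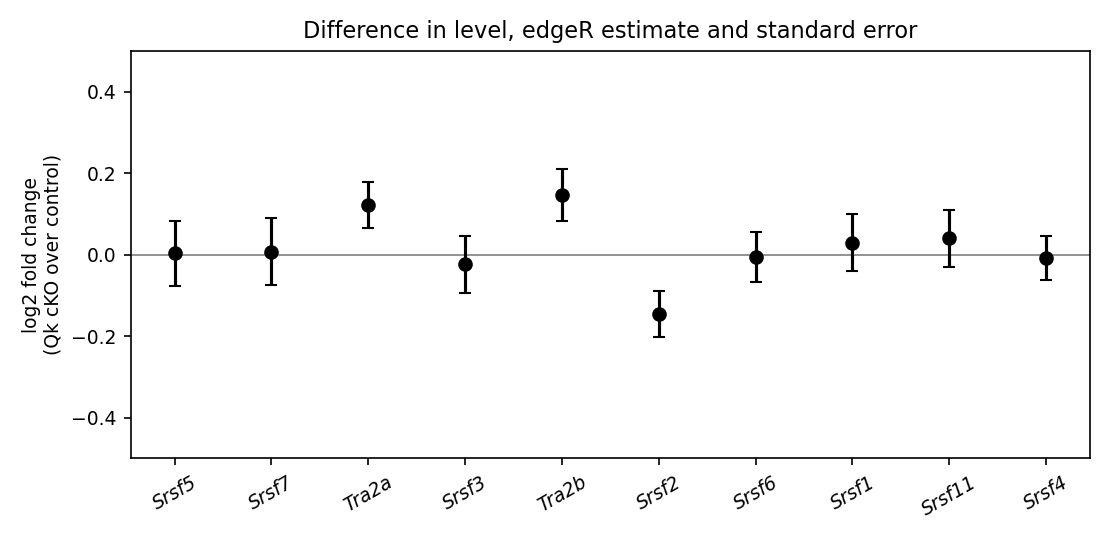
Log2 fold change of each transcript in *Qk* cKO over control as estimated by edgeR (points) with its standard error (bars), n = 2 per group. *Tra2b* and *Tra2a* lie above 0 at 0.15 and 0.12, *Srsf2* lies below at -0.15, and the other 7 lie within 0.04 of 0.

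A call required FDR below 0.1 together with p below 0.01. With the edgeR quasi-likelihood test 0 of the 10 passed, where 0.584% of all transcripts tested did, and 3 had an unadjusted p below 0.05, a share to be read beside 8.76% of all transcripts. edgeR's exact test and DESeq2 called 0 as well, with 0 and 1 at an unadjusted p below 0.05. The median log2 fold change of the 10 was 0.01, beside -0.00253 over all transcripts. The 95% intervals of the 10 lay between -0.25 and 0.27, which corresponds to 0.838-fold and 1.21-fold. With 2 samples per group an exact permutation of the labels could not give a p below 0.333 for any single gene.

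The partners of the family were examined in the same fit. None of 13 other SR and SR-related proteins, 10 kinases and nuclear import factors of SR proteins, 12 NMD factors and 4 splice site partners passed, and their log2 fold changes lay between -0.10 and 0.22. At an unadjusted p below 0.05, 3 of the 39 were found by the edgeR quasi-likelihood test, beside 8.76% of all transcripts. All 3 were higher in *Qk* cKO, while edgeR's exact test found 1 of the 39 and DESeq2 found 2. The median log2 fold change was 0.02 for the other SR proteins, 0.02 for the kinases and importer, 0.03 for the NMD factors and 0.03 for the splice site partners. *Smg1*, the kinase that phosphorylates Upf1 in NMD, had the largest value, 0.22 ± 0.07 (SE, n = 2 per group; FDR = 0.271, edgeR quasi-likelihood test), and was called by DESeq2 (FDR = 0.0970). *Smg1* is named here after its values were seen.

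The second comparison asked whether splicing within the family differed. Of the 60 events of the 10 genes, 43 had a coverage of at least 20 junction tags and were tested. Coverage is the smallest of the junction tags summed for each group and for each isoform. An event with many tags but a rare isoform can therefore fall under the minimum. Some events of a gene share the same tags, and the 43 hold 30 distinct sets of tags. Fisher's exact test on summed isoform tags called 4 of the 43, in 3 genes, beside 7.50% of all events tested. These were 1 pair of acceptors in *Tra2a*, 1 pair in *Tra2b*, and 2 of the 3 pairs that the donors of *Srsf7* form. Fisher's test counts tags as though they came from 1 embryo per group. edgeR's isoform by genotype interaction test, in which embryos may vary, called 0 of the 43, beside 0.557% of all events, and gave 3 an unadjusted p below 0.05. Fisher's exact test gave 8 an unadjusted p below 0.05. The share of all events at that limit is not given here, so these counts cannot be set against it. The same holds for the counts of poison events below. The calls of Fisher's exact test became fewer or more depending on the sample left out. Such fits leave 1 embryo in a group, and their calls are not counted here. Inclusion values that did not overlap between the groups were found in 17 of the 43 events, beside 37.9% of all events tested.

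In *Tra2a* the distal of the 2 acceptors shown above was used less in *Qk* cKO. It took 61.3 and 31.0 junction tags in the control samples and 27.0 and 35.0 in the *Qk* cKO samples, beside 110 and 118 tags in control and 135 and 156 in *Qk* cKO on the proximal acceptor. The share of the distal acceptor was 35.7% (95% Wilson interval 29.2 to 43.5) and 20.8% (15.1 to 28.0) in control and 16.7% (11.7 to 23.2) and 18.3% (13.5 to 24.4) in *Qk* cKO. Control replicate 1 stood apart, and control replicate 2 lay close to both *Qk* cKO samples. The share was 28.3% ± 10.6 in control and 17.5% ± 1.17 in *Qk* cKO (SD, n = 2 each), and from summed tags the proximal acceptor differed by Δ*I* = 0.112 (p = 0.000934 and FDR = 0.0448 by Fisher's exact test; edgeR interaction test, FDR = 0.631). Without control replicate 2 the difference was 0.182, with FDR = 0.00323. Without control replicate 1 it was 0.0324, with FDR = 0.834, and the event was not called. It was also not called without *Qk* cKO replicate 1 or *Qk* cKO replicate 2 (FDR = 0.177 and 0.124).

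In *Tra2b* the acceptor pair in the corresponding exon moved the same way. The distal acceptor took 110 and 76.0 junction tags in control and 87.0 and 74.0 in *Qk* cKO, while the proximal acceptor took 427 and 325 in control and 462 and 428 in *Qk* cKO. The share of the distal acceptor was 20.5% (17.3 to 24.1) and 18.95% (15.4 to 23.1) in control and 15.8% (13.0 to 19.1) and 14.7% (11.9 to 18.1) in *Qk* cKO. Both *Qk* cKO shares lay below both control shares. The group values were 19.7% ± 1.08 and 15.3% ± 0.782 (SD, n = 2 each), with Δ*I* = 0.0451 for the proximal acceptor (p = 0.00459 and FDR = 0.0817 by Fisher's exact test; edgeR interaction test, FDR = 0.631). The event was called in none of the 4 fits that leave out a sample, in which the difference lay between 0.0363 and 0.0517 and FDR between 0.110 and 0.371, and it was not called from junction tags alone (FDR = 0.132).

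The acceptor pairs of the other 2 genes gave no call. In *Srsf11*, a more distant SR-related protein, the distal acceptor took 11.5% and 7.91% of junction tags in control and 11.7% and 10.7% in *Qk* cKO (FDR = 0.598). In *Srsf5* the distal acceptor was the main one and took 85.8% and 86.2% in control and 85.6% and 84.5% in *Qk* cKO (FDR = 0.588), so that its groups did not overlap but lay within 2 percentage points. Over all genes 1089 acceptor pairs 3 nt apart were tested, and 7.99% of them were called, 5.14% with the proximal acceptor higher in *Qk* cKO. The family holds 13 such tested events with 4 distinct sets of tags, and 2 were called.

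**Figure D3:**
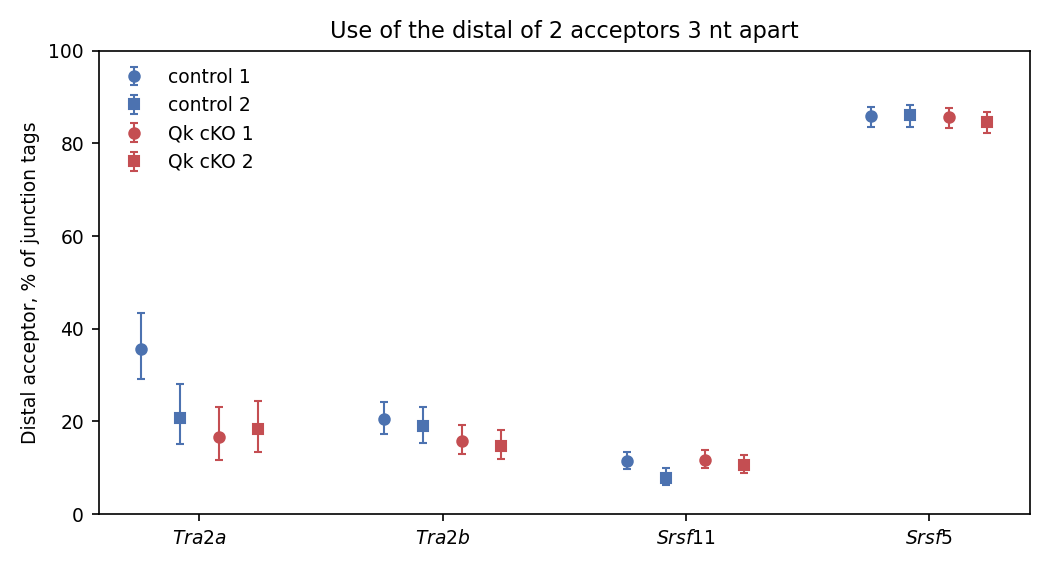
Share of the distal acceptor among junction tags (%) for the 4 genes with acceptors 3 nt apart, 1 point for each sample with its 95% Wilson interval (counting error only). In *Tra2b* both red *Qk* cKO points lie below both blue control points, in *Tra2a* control replicate 1 lies far above the other 3 samples, and in *Srsf11* and *Srsf5* the samples lie close together.

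In *Srsf7*, which carries a zinc knuckle besides its RNA recognition motif, the first of the 3 donors shown above was used less in *Qk* cKO. It took 143 and 115 tags in control and 97.4 and 104 in *Qk* cKO. Its share of the tags on the 3 donors was 9.95% (8.51 to 11.6) and 10.1% (8.48 to 11.98) in control and 6.62% (5.43 to 7.97) and 8.13% (6.77 to 9.78) in *Qk* cKO. The second donor took 31.4% and 30.5% in control and 31.1% and 32.1% in *Qk* cKO, and the third took 58.6% and 59.4% in control and 62.3% and 59.8% in *Qk* cKO. The choice between the second and the third donor gave p = 0.814 and FDR = 1 (Fisher's exact test), with the third taking 65.5% of their tags in control and 66.0% in *Qk* cKO.

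Measured against the first donor alone, the second donor had an inclusion of 75.9% and 75.2% in control and 82.4% and 79.8% in *Qk* cKO. Both *Qk* cKO values were higher than both control values (a Δ*I* of 0.0556, with Fisher's exact test giving p = 0.000556, FDR = 0.0448; edgeR interaction test, p = 0.0230, FDR = 0.8995). The pair of the first and the third donor, which shares the tags of the first, was called as well. All of these donors lead to coding transcripts, and the 24, 33 and 9 nt between them keep the reading frame. The pair of the first and second donor was not called without control replicate 1 (FDR = 0.178) or without *Qk* cKO replicate 1 (FDR = 0.466), and was called in the other 2 fits.

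**Figure D4:**
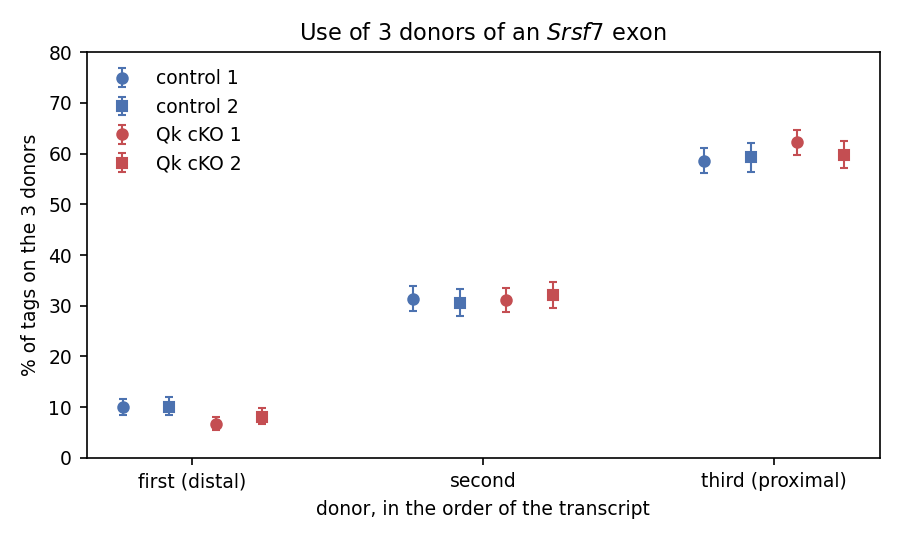
Share of tags (%) on each of the 3 donors of the *Srsf7* exon, in the order in which they lie on the transcript, 1 point for each sample with its 95% Wilson interval (counting error only). The first donor lies at 9.95% and 10.1% in control and at 6.62% and 8.13% in *Qk* cKO, and the samples overlap at the second donor.

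The third comparison concerned the poison events themselves. An event was taken as one when 1 of its isoforms occurs only in transcripts annotated as NMD, retained intron or processed transcript and the other in a coding transcript. By this rule 16 events of 9 genes were poison events, and *Srsf2* had none, because splicing of its tested intron is annotated in 1 coding as well as 2 NMD transcripts. Of the 16, 13 passed the coverage minimum. Fisher's exact test called 0 of the 13, beside 7.50% of all events tested, and gave 2 an unadjusted p below 0.05 (*Srsf11* and *Tra2a*). From junction tags alone 0 were called and 2 had an unadjusted p below 0.05 (*Srsf3* and *Srsf6*), and edgeR's interaction test called 0 with 0 at an unadjusted p below 0.05. With 1 sample left out, Fisher's exact test called poison events of *Srsf4*, *Srsf11*, *Tra2a* or *Tra2b* in some fits and none in others. Such a fit leaves 1 embryo in a group, and its calls are not counted here. The difference in the poison isoform lay between -0.564 and 4.75 percentage points, with a median of 0.790. The median absolute difference was 0.790 for the poison events and 2.56 over all events tested. By junction tags the difference in the poison isoform was positive in 10 and negative in 3 of the 13 events. The isoform tags that were tested gave the opposite sign in 5 of the 13 (*Tra2a*, the longer form in *Tra2b*, *Srsf7*, the 268 nt exon of *Srsf6* and the 109 nt exon of *Srsf11*), so no direction can be read from these counts. The events share genes and junctions and are not independent.

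The share of the poison isoform among the tags of its event differed widely within the family, as the plot of the poison events shows. The 306 nt exon of *Tra2a* (chr6:49252803-49253108) was included in 3.46% and 2.60% of control and 3.18% and 3.21% of *Qk* cKO junction tags. Nearly all of its support came from the upstream junction, with 37.7 and 23.2 tags in control and 42.4 and 38.4 in *Qk* cKO, while at most 0.217 tags of a sample fell on the downstream junction. A form of the exon that ends 5 nt earlier, of 301 nt, shares the upstream junction and had 3.13 and 5.31 downstream tags in control and 3.23 and 10.3 in *Qk* cKO, so the inclusion is not specific to the 306 nt form. From isoform tags, which add those inside the exon, the exon had 198 and 136 tags in control and 154 and 193 in *Qk* cKO, against 528 and 435 tags without it in control and 649 and 582 in *Qk* cKO, a lower share in *Qk* cKO (p = 0.0173 and FDR = 0.149 by Fisher's exact test). With Fisher's exact test on the junction tags alone p was 0.862.

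In *Tra2b* the 276 nt exon (chr16:22258986-22259261) had the highest inclusion of the poison cassette exons. It was included in 34.7% (28.7 to 41.3) and 30.9% (24.7 to 37.4) of control tags and in 31.2% (26.0 to 37.5) and 44.6% (38.4 to 51.2) of *Qk* cKO tags. *Qk* cKO replicate 2 stood above the other 3 samples, and *Qk* cKO replicate 1 lay between the controls (Fisher's exact test, p = 0.148, FDR = 0.481; edgeR interaction test, FDR = 0.861). The same replicate 2 had the highest *Tra2b* level, 108 RPKM. A longer form of the exon, of 397 nt, was included in 24.4% and 24.1% of control and 19.7% and 28.8% of *Qk* cKO tags (FDR = 0.508). Most of these tags lay on the upstream junction that both forms share, 82 and 87 in control and 78 and 98 in *Qk* cKO. The downstream junction of the longer form held 9 and 2 tags in control and 6 and 4 in *Qk* cKO. Its inclusion values are thus not specific to the 397 nt form. Without *Qk* cKO replicate 1 both forms were called, and the difference of the 276 nt form was 0.118. Without *Qk* cKO replicate 2 its difference was -0.0167.

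Among the classical SR genes, the 456 nt exon of *Srsf3* (chr17:29039454-29039909) was included in 5.72% and 6.32% of control and 6.61% and 7.31% of *Qk* cKO tags. Both *Qk* cKO values lay above both control values, with FDR = 0.983 from isoform tags and 0.188 from junction tags. The 460 nt exon of *Srsf7* (chr17:80204622-80205081) was included in 7.84% and 6.10% of control and 6.17% and 8.17% of *Qk* cKO tags, and the groups overlapped (FDR = 1). For *Srsf4*, all 3 tandem exons together were included in 20.6% and 19.1% of control and 24.7% and 20.1% of *Qk* cKO tags (FDR = 0.294). The groups overlapped for the exons of *Srsf7* and *Srsf4*.

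*Srsf6* had its poison exon of 268 nt (chr2:162932815-162933082) in 16.1% (11.6 to 21.6) and 16.1% (11.5 to 22.0) of control and in 20.6% (16.0 to 26.5) and 20.7% (15.7 to 26.4) of *Qk* cKO tags. The replicates of a group were close to each other and the groups did not overlap, but the intervals of counting error did. FDR was 0.180 from junction tags. Isoform tags, which add those inside the exon, went the other way, with 1738 with and 330 without the exon in control and 1708 and 357 in *Qk* cKO (FDR = 0.622). The downstream junction held 56.3 and 49.3 tags in control and 85.3 and 82.3 in *Qk* cKO, and the upstream junction 10.2 and 11.0 in control and 10.2 and 8.17 in *Qk* cKO. The intron that holds this exon (chr2:162932143-162933425) is retained in an annotated transcript without a coding frame. Its retention was 44.5% and 44.6% in control and 47.8% and 46.9% in *Qk* cKO (FDR = 0.579). The downstream boundary of the intron held 257 and 246 tags in control and 328 and 294 in *Qk* cKO. The upstream boundary held only 20.003 and 7 in control and 8.003 and 13.003 in *Qk* cKO. The retention values thus rest almost wholly on the downstream end and do not show that the whole intron was kept. The exon and the intron lie in the same place, so tags inside them cannot be assigned to one alone.

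Poison events of 3 more genes remain. In *Srsf11* the pair of exons was included in 6.34% and 6.39% of control and 5.06% and 6.67% of *Qk* cKO junction tags. Fisher's exact test gave p = 0.0141 and FDR = 0.121 on isoform tags and p = 0.492 on junction tags alone. In *Srsf1* a distal acceptor that lies 565 nt downstream of the main one and occurs in an NMD transcript took 5 and 4 tags in control and 7 and 10 in *Qk* cKO, that is 0.328% and 0.311% and then 0.440% and 0.673% (FDR = 0.613). In *Srsf5* an intron of 1229 nt (chr12:80947866-80949094) that is kept only in transcripts without a coding frame was retained at 89.0% and 86.5% in control and 88.2% and 89.2% in *Qk* cKO (FDR = 0.851). No annotated NMD transcript keeps it. Its spliced junction held 45.0 and 40.7 tags in control and 50.4 and 48.7 in *Qk* cKO. A junction further upstream held 1671 and 1338 in control and 1739 and 1664 in *Qk* cKO. The retention is therefore not a share of all *Srsf5* transcripts. The groups overlapped in *Srsf11* and *Srsf5*, and in *Srsf1* they did not but rested on few tags.

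**Figure D5:**
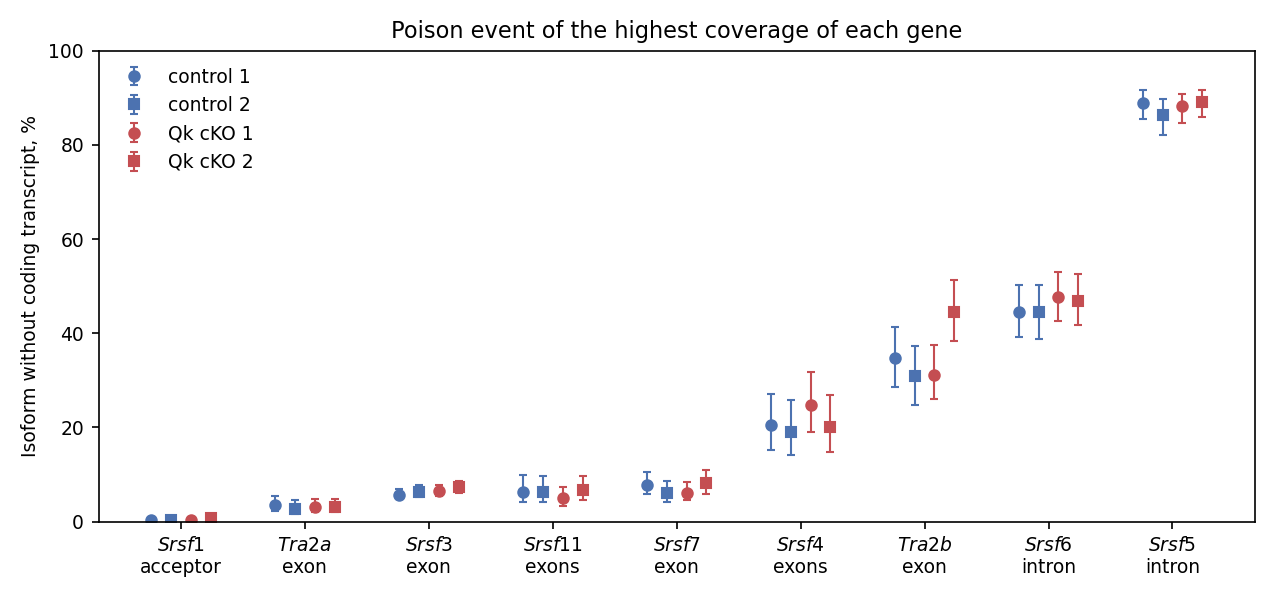
Share of the isoform that no coding transcript carries (%), for the poison event of the highest coverage of each of 9 genes, 1 point for each sample with its 95% Wilson interval (counting error only). Shares run from under 1% for the *Srsf1* acceptor to 86.5% to 89.2% for the *Srsf5* intron, and in *Tra2b* the *Qk* cKO replicate 2 lies above the other 3 samples at 44.6%. Each share is of the junction tags of the event and not of all transcripts of the gene. For *Srsf6* the event is the intron, whose retention tags lay almost wholly on its downstream boundary.

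Among the other events of genes without a call, the one with the largest difference was in *Srsf11*. The inclusion of its 109 nt exon, measured against skipping to the following poison exon, was 21.8% and 31.5% in control and 61.6% and 31.1% in *Qk* cKO (FDR = 0.481, Fisher's exact test). It rested on 12 to 18 tags per sample, with inclusion tags averaged over both junctions of the exon. Only *Qk* cKO replicate 1 lay above the controls, and replicate 2 lay between them. The difference from summed tags was 0.179, and without *Qk* cKO replicate 2 it was 0.340. In *Srsf2* the intron at chr11:116850354-116850855 was retained at 90.9% and 85.3% in control and 88.3% and 88.6% in *Qk* cKO (FDR = 1). In *Srsf1* the intron at chr11:88049216-88049411 was retained at 14.8% and 14.3% in control and 13.1% and 14.9% in *Qk* cKO (FDR = 0.695). In both genes the group values differed by less than 1 percentage point.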

How the data were processed

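Per the labels and the study's methods, polyA-selected RNA was sequenced with an unstranded kit as paired 150 nt reads. The authors mapped the reads to mm10 with OLego and counted them with Quantas, whose versions are not given in the sources used here. The authors deposited for each sample a table of genes with estimated counts of tags and RPKM values, and tables of splicing events with expected counts of tags for each isoform and junction. From these files, gene levels were tested on rounded counts with edgeR 4.0.16 (R 4.3.3, TMM scaling, quasi-likelihood test), with the exact test of edgeR and DESeq2 1.42.0 as alternatives. RPKM values are used as levels only.

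Inclusion was computed from junction tags, and differences are *Qk* cKO minus control. Events with a coverage of at least 20 were tested with Fisher's exact test (two-sided) on isoform tags summed over the replicates, and with an edgeR interaction test. Calls required p below 0.01 and a Benjamini-Hochberg FDR below 0.1, adjusted over all genes or over all events of a type. Wilson 95% intervals and Fisher's test cover counting error only, since they take tags as independent and leave out the variation between embryos. Reads carried no molecular identifiers. Exons, frames and sequences came from GENCODE M21. The members and gene lists were chosen with earlier results of these data known. Named were all members' levels, the called event, the poison event of highest coverage and the largest event of each gene, and further values of those genes chosen after they were seen. Other settings, each sample left out and the replicate numbers as a block were tried. The p-values of edgeR and DESeq2 take in the spread between only 2 embryos per group. Those of Fisher's exact test leave that spread out. Scripts were tested on simulated data.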

Additional observations from a re-analysis of the deposited data

How the results depend on the processing

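With 2 samples per group the results depend most on single samples. The 4 called events of the family became 0 with edgeR's interaction test, which includes the variation between embryos, and ranged from 0 to 7 when 1 sample was left out (0 without control replicate 1, 6 without control replicate 2, 2 without *Qk* cKO replicate 1, 7 without *Qk* cKO replicate 2). They were 3 from junction tags alone and 3 with 1 event per set of identical tags, an alternative chosen after seeing the data. Poison events had 0 calls with all samples in the fit, and some fits with a sample left out called poison events. Gene levels of the family had 0 calls in every setting tried. Among the 39 partners 1, *Smg1*, was called by DESeq2 and 1 with the replicate block, against 0.

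Deviations of same-numbered samples correlated at 0.303 over 12928 genes but at -0.0807 over 12442 autosomal ones, and at -0.014 over 11496 events. The replicate number thus showed no pairing in autosomal genes or events. Same-numbered samples shared deviations in genes not placed on autosomes, and why was not tested. With the replicate block 4 events of the family were called, and the *Qk* junctions gave a log2 odds ratio of -3.98, with -4.09 to -3.85 when a sample was left out. With upper-quartile scaling the log2 fold change turned to -0.0042 for *Srsf5* and to -0.00094 for *Srsf7*. Averaged over replicates, the *Srsf7* poison exon differed by 0.00204. With 1 sample left out, signs changed within -0.0224 to 0.0805 for *Srsf1*, -0.0955 to 0.0479 for *Srsf3*, -0.0548 to 0.0325 for *Srsf4*, -0.125 to 0.140 for *Srsf5*, -0.0630 to 0.0505 for *Srsf6*, -0.0818 to 0.0965 for *Srsf7* and -0.0176 to 0.0965 for *Srsf11*, and for the poison events within -0.0167 to 0.118 (*Tra2b*), -0.00866 to 0.0113 (*Srsf7*), -0.0130 to 0.00305 (*Srsf11*), -0.00284 to 0.0225 (*Srsf5*) and -0.00262 to 0.00592 (*Tra2a*). The cause was not tested. Of the other settings for named values, 137 kept direction and call, 5 lost a call and 3 changed sign. Depth limits the *Srsf1* acceptor, with 4 to 10 tags, and the *Srsf11* exon.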
